A study of Mus musculus with 9 samples.

Results

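Splenic B cells of older double-transgenic mice were set against those of younger single-transgenic mice: Eµ-PRMT5/TCL1 at 6 months (n = 2) and Eµ-TCL1 at 3 months (n = 2), chosen by the sample descriptions and amounting to 4 of the 9 libraries of the series. Eµ-TCL1 mice (transgene label Eµ-hTCL1) carry human TCL1, and Eµ-PRMT5/TCL1 mice (Eµ-hPRMT5/hTCL1) carry human TCL1 and human PRMT5. All mice carry the strain label C57BL/6N, whereas the study's methods place the Eµ-TCL1 mice of the cross on a C57BL/6J background. By the study's methods, human PRMT5 was placed behind an immunoglobulin heavy-chain V promoter and the Eµ enhancer, which drive it in B-lineage cells, mice of the PRMT5 founder line L25 were crossed to homozygous Eµ-TCL1 animals, and total RNA was taken from spleen cells enriched with a pan-B kit. The labels give 1 library per mouse, so p-values measure the spread between mice. These 2 groups are called the older double-transgenic and the younger mice below. The contrast changes the PRMT5 transgene and the age together, and within these 4 libraries they cannot be told apart.

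TCL1 is a co-activator of AKT kinases, and mice that express it in B cells develop an expansion of CD5-positive B cells that is used as a model of chronic lymphocytic leukemia (CLL). PRMT5 is the main enzyme that adds symmetric dimethyl marks to arginine, in a complex with WDR77; it modifies histones, and together with pICln (Clns1a) it methylates the Sm proteins of the splicing machinery. Mature splenic B cells are mostly follicular or marginal zone cells, whereas B1a cells, from which CLL-like cells of the mouse are thought to arise, have their own program of transcription factors and secrete IL-10.

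Total counts were 13094367 and 13659472 in Eµ-TCL1 at 3 months and 16487984 and 14783012 in Eµ-PRMT5/TCL1 at 6 months, so the older group was sequenced more deeply. Xist had between 23648 and 28744 counts in these 4 libraries, and the summed count of 4 Y-linked genes was at most 2, so the groups were matched for sex-linked transcripts. Defining B-cell markers were present in every library: Ms4a1, which encodes CD20, was at 1109 and 1048 CPM (counts scaled to the library size) in Eµ-TCL1 at 3 months and 1852 and 2254 CPM in Eµ-PRMT5/TCL1 at 6 months. T-cell, natural killer and myeloid transcripts were also present, and their levels are given beside the results they move with. The human transgenes were not analysed here, so the genotypes were not checked by them.

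In edgeR's quasi-likelihood test with Benjamini-Hochberg adjustment, 2706 of 18795 tested genes passed an adjusted p of 0.05, or 14.4% of the genes tested. Of these, 1408 were higher (7.49%) and 1298 lower (6.91%) in Eµ-PRMT5/TCL1 at 6 months. The lower genes had the larger changes, with a median log2 fold change of -1.32 against 0.77 for the higher genes; 887 lower and 495 higher genes had an absolute log2 fold change over 1. The median over all tested genes was -0.01. Both Eµ-TCL1 libraries mattered for the count: without replicate 1 of that group 651 genes passed, and without replicate 2 880 passed. A fit of the 4 libraries alone called 0 genes in edgeR, although 4662 had an unadjusted p below 0.05, and 1880 genes in DESeq2. Among the other 5 libraries, 3 (both Eµ-TCL1 libraries at 6 months and 3-month Eµ-PRMT5/TCL1 replicate 1) had 7863 to 10434 Y-linked counts and at most 18 Xist counts, and a fit of the 6 libraries without them called 1766 genes.

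The 12 higher and 12 lower protein-coding genes with the smallest adjusted p among those with an absolute log2 fold change over 1 were named, and in each of the 24 both Eµ-PRMT5/TCL1 libraries at 6 months lay outside the range of all the other 7 libraries. Over all tested genes, 17.7% had both of these libraries above the other 7 and 15.4% had both below. Among called genes, 1336 of 1408 higher ones had both above and 1210 of 1298 lower ones had both below. The choice by the same fit therefore favours this outcome in the 24. All 24 also passed in edgeR with any single library of the 9 left out. Gas7, Plp2, Rapgef4, Satb1, Trim7 and Evl share exonic sequence with a gene on the opposite strand, and fragments were counted without strand, so reads of the gene and its neighbour cannot be told apart. The same holds for 43 of the 149 called genes of the gene lists described below, among them Bach2, Bhlhe41, Fcgr2b, S1pr3, Gapdh, Jun, Tacc3, Cdk4, Cd3e and Lef1.

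Each of the 12 named higher genes rose by more than 1 on the log2 scale. Twsg1, a secreted modulator of bone morphogenetic protein signalling, was at 50.3 and 49.9 CPM in Eµ-TCL1 at 3 months and 165 and 203 CPM in Eµ-PRMT5/TCL1 at 6 months, with 39.1 to 43.3 CPM in the other 5 libraries. The log2 fold change was 1.88 (SE 0.12, edgeR adjusted p 0.000806). Gas7, which remodels actin at membranes, went from 23.7 and 25 to 243 and 168 CPM (log2 fold change 3.08, SE 0.21, edgeR adjusted p 0.000806); the Eµ-TCL1 libraries at 6 months lay between them, at 52.3 and 46.6 CPM. Capg, which caps actin filaments, was at 108 and 109.8 CPM in the younger and 299.6 and 309 CPM in the older double-transgenic mice, with nearly equal values within each group and a log2 fold change of 1.48. Ahnak, a very large scaffold protein under the plasma membrane, was at 3246 and 2667 CPM in the younger and 14985 and 10856 CPM in the older double-transgenic mice (log2 fold change 2.13). Sept11, a septin, had a log2 fold change of 1.5, Plp2, a membrane proteolipid, 1.85, and Tppp, which promotes tubulin polymerization, 3.66.

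The cytokine gene Il10 and genes of receptors and enzymes were also among them. Il10 (GRCm38 chromosome 1, 131019845 to 131024974, plus strand), the suppressive cytokine made by B1a and regulatory B cells, was at 2.94 and 2.31 CPM in the younger Eµ-TCL1 mice and 23.1 and 20.6 CPM in the older Eµ-PRMT5/TCL1 mice. It lay at 1.54 to 2.39 CPM in the other 5 libraries, 3 of which had Y-linked counts. Its log2 fold change was 3.05 (SE 0.25, edgeR adjusted p 0.00118). Tnfrsf8, which encodes CD30, was at 9.24 and 5.20 CPM in the younger and 82.2 and 56.2 CPM in the older double-transgenic mice, and Nrp2, a receptor for semaphorins and vascular growth factors, at 15.2 and 12.6 CPM in the younger and 114 and 68.4 CPM in the older double-transgenic mice. The log2 fold changes were 3.26 and 2.71. Chst7, a sulfotransferase, had the largest log2 fold change of the 24 genes, 3.70 (SE 0.29), from 2.08 and 1.37 to 24.7 and 20.4 CPM. Fah, the last enzyme of tyrosine breakdown, had a log2 fold change of 2.79.

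Cr2 (chromosome 1, 195136811 to 195176716, minus strand), which encodes the complement receptor CD21 of follicular and marginal zone B cells, fell most among the 12 named lower genes. It was at 577 and 755 CPM in Eµ-TCL1 at 3 months, 92.9 and 55.2 CPM in Eµ-PRMT5/TCL1 at 6 months and 482 to 866 CPM in the other 5 libraries. The log2 fold change was -3.17 (SE 0.24, edgeR adjusted p 0.00118). Rapgef4, a cAMP-responsive activator of Rap, fell from 69.3 and 66.9 to 12 and 8.61 CPM, and Satb1, a chromatin organiser of lymphocytes, from 536 and 546 to 116 and 89.1 CPM. Their log2 fold changes were -2.72 and -2.40. Carboxypeptidase M (gene symbol Cpm) fell by 2.25 on the log2 scale, and Igfbp4, which binds insulin-like growth factors, by 1.66. Grap2 (-1.39), an adaptor of the T-cell receptor, and Cd226 (-1.80), an activating receptor of T and natural killer cells, also fell, and the markers of these cells were lower in the same libraries, as given below. Tnik (-1.68), Evl (-1.53), Trim7 (-1.55) and the interferon-inducible Ifi214 (-1.46) were also among the lower genes, given by log2 fold change. The part of T cells in any of the named lower genes was not tested.

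**Figure D1:**
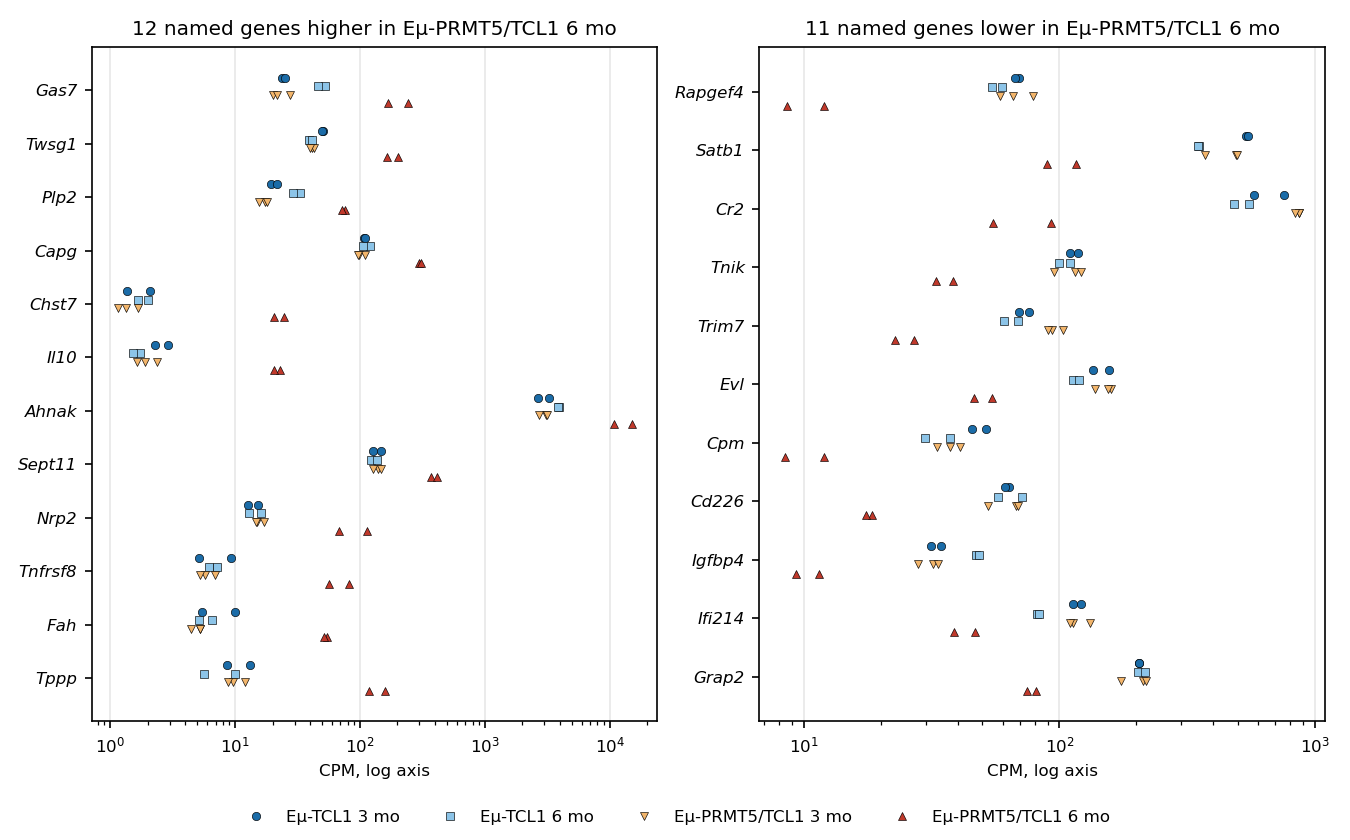
CPM on a log axis for the 12 named higher genes (left) and 11 of the 12 named lower genes (right), with 1 symbol per library and a shape and colour for each of the 4 groups. In every gene shown the 2 Eµ-PRMT5/TCL1 libraries at 6 months stand apart from the other 7.

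Besides this contrast, 2 comparisons with the same younger mice were made, of the transgene at 3 months and of age in Eµ-TCL1. Whether the 2 together account for the contrast was not tested. Between Eµ-PRMT5/TCL1 and Eµ-TCL1 at 3 months, 0 of 18795 genes (0%) passed in edgeR, and DESeq2 called 3. In edgeR the smallest adjusted p was 0.999981, and only 242 genes had an unadjusted p below 0.05. Between 6 and 3 months in Eµ-TCL1, 0 genes (0%) passed in edgeR, although 1898 had an unadjusted p below 0.05, and DESeq2 called 55; without 6-month Eµ-PRMT5/TCL1 replicate 1 or 2 in the fit, edgeR called 114 and 111. Both Eµ-TCL1 libraries at 6 months had Y-linked counts and both at 3 months had Xist, so age and sex cannot be told apart in that comparison. All 3 comparisons share the Eµ-TCL1 libraries at 3 months. Each of the 5 other libraries was then placed on a scale on which the Eµ-TCL1 mean at 3 months is 0 and the Eµ-PRMT5/TCL1 mean at 6 months is 1, gene by gene in log2 CPM. Over the 495 higher genes with a log2 fold change over 1, the median position ran from -0.105 in replicate 1 to 0.0771 in replicate 2 of the 3-month Eµ-PRMT5/TCL1 mice, and was 0.025 in both Eµ-TCL1 libraries at 6 months. Over the 887 lower genes it ran from -0.0168 in replicate 3 to 0.178 in replicate 2 of the same mice, and was 0.169 and 0.143 in Eµ-TCL1 at 6 months. The genes were chosen by the contrast itself, so these positions are a description. Both groups that set the scale had Xist counts, whereas both Eµ-TCL1 libraries at 6 months and 3-month Eµ-PRMT5/TCL1 replicate 1 had Y-linked counts; the part of sex in the positions was not tested.

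**Figure D2:**
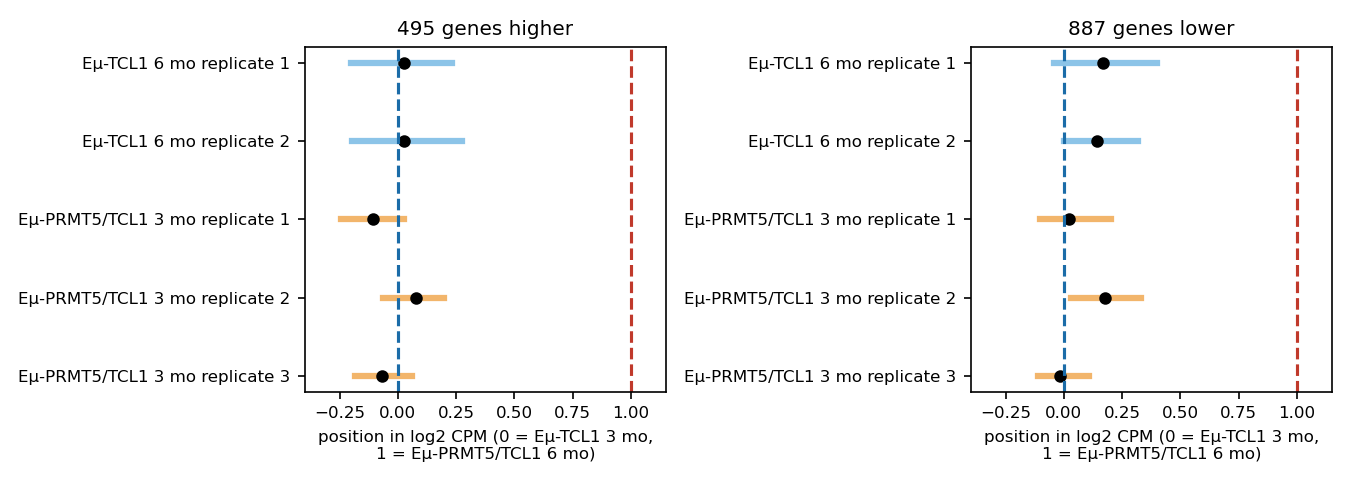
Position of the 5 other libraries between Eµ-TCL1 at 3 months (0, blue dashed line) and Eµ-PRMT5/TCL1 at 6 months (1, red dashed line) for the genes called with an absolute log2 fold change over 1. Dots are medians over genes and bars run from the lower to the upper quartile; every median lies between -0.105 and 0.178, nearer to 0 than to 1.

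Arginine methyltransferases and partners of PRMT5 were examined first among the gene lists. Mouse Prmt5 (chromosome 14, 54507187 to 54517525, minus strand) was at 32.8 and 33.5 CPM in Eµ-TCL1 at 3 months and 54.9 and 45.7 CPM in Eµ-PRMT5/TCL1 at 6 months, while the 5 other libraries, 3 of which carry the PRMT5 transgene, lay at 32.4 to 36.5 CPM. It rose by 0.60 on the log2 scale (SE 0.13, edgeR adjusted p 0.0171), and it no longer passed without either Eµ-TCL1 library at 3 months or without 6-month Eµ-PRMT5/TCL1 replicate 1. The share of reads from the human transgene that were counted to the mouse gene was not measured. Of 18 tested members of the list (Prmt8 had no counts), 7 rose (38.9%, beside 7.49% of all tested genes) and 0 fell, with a median log2 fold change of 0.44 beside the all-gene median of -0.01. Besides Prmt5 these were Prmt7, the monomethylating enzyme (0.87), Mat2a, which makes the methyl donor (0.76), Prmt2 (0.76), Prmt1, the main asymmetric enzyme (0.59), Clns1a (0.51) and the Sm protein gene Snrpb (0.48). Wdr77, the obligate partner of PRMT5, had a log2 fold change of 0.18 (SE 0.12, edgeR adjusted p 0.345). DESeq2 on the 4 libraries alone called 3 members of this list. In edgeR, 0 members of this list passed without 3-month Eµ-TCL1 replicate 1, although 7 had an unadjusted p below 0.05, and 0 without replicate 2, although 8 did; DESeq2 on all libraries called 7.

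Follicular and marginal zone genes were lower in part. Of 16 members, 8 fell, beside 6.91% of all tested genes, and 3 rose, with a median log2 fold change of -0.84. Fcer2a (chromosome 8, 3681737 to 3694175, minus strand), which encodes CD23 on follicular B cells, was at 126 and 174 CPM in Eµ-TCL1 at 3 months and 19.3 and 12.8 CPM in Eµ-PRMT5/TCL1 at 6 months. These ranges lay far apart, and the log2 fold change was -3.22 (SE 0.39, edgeR adjusted p 0.00422). Icosl, the ligand of the T-cell co-stimulator ICOS, fell from 76.1 and 88.3 to 22.6 and 14.2 CPM, and Ighd, the constant gene of IgD that mature naive B cells carry, from 267 and 323 to 71.7 and 93.7 CPM. Fcrl1, an activating receptor of B cells, fell by 1.22 on the log2 scale. Cr2 and Satb1, described above, and Cd1d1 (-0.83) fell too. S1pr3, a sphingosine phosphate receptor of marginal zone cells, rose from 19.6 and 19.5 to 186 and 113 CPM (log2 fold change 2.94), and Cd9 (1.22) and Klf2 (0.50) also rose, so the list was split in direction. Leaving out either Eµ-TCL1 library at 3 months, 6 members fell and 0 rose. Satb1 is also transcribed in T cells, whose markers fell in the same libraries, and their part was not tested.

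B1a and CLL-like genes were mostly higher. Of 14 members, 8 rose (all tested genes: 7.49%) and 1 fell (6.91%), with a median log2 fold change of 1.17. Zbtb32, a repressor expressed in B1 and memory B cells, was at 23.8 and 11.3 CPM in Eµ-TCL1 at 3 months and 161 and 133 CPM in Eµ-PRMT5/TCL1 at 6 months. The higher of the Eµ-TCL1 values belonged to replicate 1, which was also the higher for Bhlhe41, a regulator of B1a cells, at 39.3 and 14.1 against 90.9 and 153 CPM. The log2 fold changes were 3.07 (SE 0.38) and 2.19 (SE 0.50), and Bhlhe41 passed in only 3 of the 9 fits that left out a library. Plscr1, a phospholipid scramblase of B1 cells, rose from 22.6 and 20.9 to 91.3 and 93.8 CPM, with little spread in either group. Arid3a (1.72), Fcrl5 (1.38), Ptpn22 (1.27) and Nfatc1 (1.08) rose with Il10. Cd5, the surface marker of these cells, was at 69.3 and 75.3 CPM in the younger and 44 and 55.4 CPM in the older double-transgenic mice, with a log2 fold change of -0.54 (SE 0.17, edgeR adjusted p 0.0664). Zap70, a kinase of T cells that some CLL cells express, fell by 1.08; both genes are also transcribed in T cells, whose markers fell in the same libraries, and their part was not tested. Leaving out 3-month Eµ-TCL1 replicate 2, 5 members rose and 1 fell.

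Genes of B-cell identity and antigen receptor signalling were higher in part. Of 22 members 9 rose, where 7.49% of all genes did, and 0 fell, with a median log2 fold change of 0.43. The 9 defining B-cell markers, which include Ighm and Igkc, summed to 7275 and 9150 CPM in Eµ-TCL1 at 3 months and to 28696 and 27612 CPM in Eµ-PRMT5/TCL1 at 6 months; 4 of them rose and 0 fell. Ms4a1 had a log2 fold change of 0.93, the receptor subunit gene Cd79b 0.79, and the kinases Blk and Syk, which relay the receptor's signal, 1.18 and 1.02. Plcg2, the phospholipase downstream of them, rose by 0.93, Cd24a by 1.13 and the inhibitory Fc receptor gene Fcgr2b by 1.97. Fcgr2b was at 87.9 and 109.6 CPM in Eµ-TCL1 at 3 months and 536 and 239 CPM in Eµ-PRMT5/TCL1 at 6 months, so both older mice lay above the younger ones but far apart from each other. Cd81 (0.75) and Ptpn6 (0.38) completed the genes that rose. Pax5 and Ebf1, which fix B-cell identity, had log2 fold changes of 0.02 and -0.30 and did not pass. The count of 9 was 3 without 3-month Eµ-TCL1 replicate 1 and 4 without replicate 2.

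Of 20 transcription factors of B cells, 3 rose and 4 fell, against 7.49% and 6.91% of all genes. Bach2, which holds B cells back from plasma cell differentiation, fell from 134 and 117 to 29.1 and 35.2 CPM (log2 fold change -1.97, SE 0.20, edgeR adjusted p 0.00173). Its values in Eµ-TCL1 at 6 months, 63.6 and 94.1 CPM, lay between the groups. Runx3 (-1.5), Bcl11a (-1.13) and Runx1 (-0.61) also fell, and Pou2af1, the co-activator of octamer factors (0.88), Tcf4 (0.98) and Spib (0.72) rose. T-cell markers fell in the same libraries (list median -1.43), and the part of T cells in these lower genes was not tested. When 3-month Eµ-TCL1 replicate 1 or 2 was left out, 1 member rose in each fit, and 2 and 3 fell.

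Plasma cell and secretion genes were higher in part. Of 14 members 8 rose, compared with 7.49% of all genes, and 0 fell, with a median log2 fold change of 1.11. Prdm1 (chromosome 10, 44437177 to 44528501, minus strand), which encodes the plasma cell regulator BLIMP-1, was at 19 and 11 CPM in Eµ-TCL1 at 3 months and 51.7 and 53.3 CPM in Eµ-PRMT5/TCL1 at 6 months, against 11 to 16.4 CPM in the other 5 libraries. The log2 fold change was 1.81 (SE 0.24, edgeR adjusted p 0.00338). Irf4, which acts with it, rose from 151 and 169 to 526 and 373 CPM, and Creb3l2, a factor of the secretory pathway, from 24 and 19.6 to 79.8 and 86.1 CPM. Mzb1 (1.73), Derl3 (1.51), Xbp1 (1.12), Txndc5 (1.10) and Ell2 (0.93) also rose. Jchain, which links secreted IgM and IgA, was at 419 and 897 CPM in the younger and 494 and 500.3 CPM in the older double-transgenic mice, with overlapping groups, and Sdc1, the surface marker CD138, at 11.7 and 15 CPM in the younger and 19.2 and 18 CPM in the older double-transgenic mice; neither passed. Leaving out 3-month Eµ-TCL1 replicate 1 or 2 left 3 and 5 members that rose.

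Immunoglobulin constant genes differed by class. Ighm (chromosome 12, 113418558 to 113422730, minus strand), the constant gene of IgM, was at 3282 and 4973 CPM in Eµ-TCL1 at 3 months, 22582 and 19112 CPM in Eµ-PRMT5/TCL1 at 6 months and 2773 to 4934 CPM in the other 5 libraries. The groups lay far apart, with a log2 fold change of 2.34 (SE 0.31, edgeR adjusted p 0.00408). The light-chain genes Igkc (1.58) and Iglc3 (1.48) rose too, whereas Ighd fell (-1.84), so of 12 members 3 rose and 1 fell (7.49% and 6.91% of all genes). Ighg2b, an IgG constant gene, was at 279 and 425 CPM in Eµ-TCL1 at 3 months but at 2844 and 28.5 CPM in 6-month Eµ-PRMT5/TCL1 replicates 1 and 2, and Ighg2c at 270.4 and 315 CPM in the younger and 1731 and 61 CPM in the older double-transgenic mice. In both genes replicate 1 was the highest and replicate 2 the lowest of the 9 libraries, and neither passed (edgeR adjusted p 0.488 and 0.464). The heavy-chain V genes were concentrated in the same mice: in replicate 1, Ighv9-3 held 77.1% of the 94338 counts of Ighv genes (95% interval by Wilson 76.9% to 77.4%) and Ighv1-74 90.1% of 37048 in replicate 2 (89.8% to 90.4%), whereas the leading gene took 27.7% and 9.5% in Eµ-TCL1 at 3 months. Of 182 tested immunoglobulin V genes 55 fell and 0 rose; V genes of similar sequence can exchange counts.

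**Figure D3:**
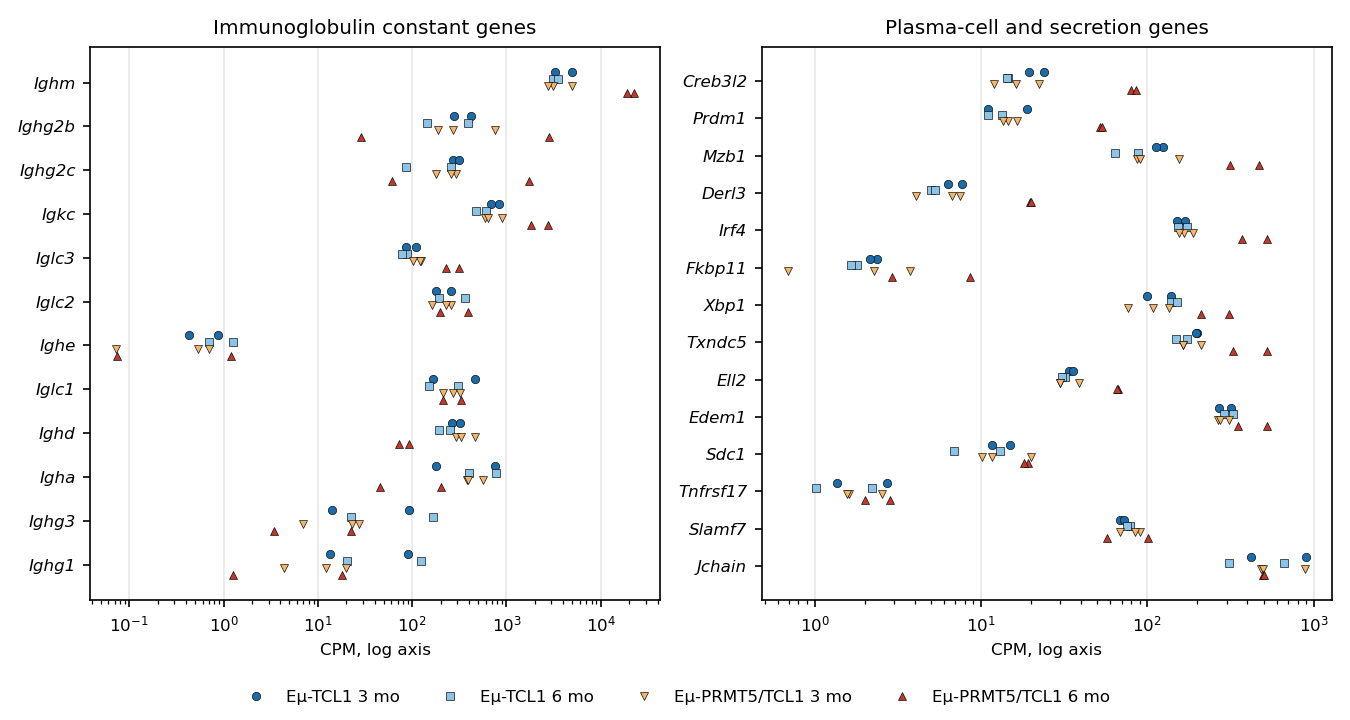
CPM on a log axis for immunoglobulin constant genes (left) and plasma cell and secretion genes (right), 1 symbol per library, ordered by log2 fold change. Ighm and Prdm1 are higher in both Eµ-PRMT5/TCL1 libraries at 6 months, and Ighg2b and Ighg2c lie at opposite ends in these 2 mice.

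Myc and many of the ribosome and nucleotide genes that commonly respond to it were higher. Myc (chromosome 15, 61985391 to 61990374, plus strand) was at 35.8 and 29.6 CPM in Eµ-TCL1 at 3 months, 54.9 and 76 CPM in Eµ-PRMT5/TCL1 at 6 months and 24 to 33.6 CPM in the other 5 libraries. The log2 fold change was 1.00 (SE 0.17, edgeR adjusted p 0.00823), and it did not pass without 3-month Eµ-TCL1 replicate 2. Of the 30 MYC-responsive genes, 17 rose (56.7%, against 7.49% of all genes) and 0 fell, with a median log2 fold change of 0.54. Nop16, a ribosome assembly factor, rose from 16.3 and 16.1 to 35.8 and 38.5 CPM, and Odc1, the first enzyme of polyamine synthesis, from 60.2 and 65.7 to 129.9 and 117 CPM. Srm, the next enzyme of that pathway (1.16), the mitochondrial chaperone gene Hspd1 (1.05), Polr1b of RNA polymerase I (0.85), Nolc1 (0.82) and Nme1 (0.80) also rose. The smallest called changes were about 0.50 (Rrp9) and 0.51 (Eif4a1). Only 3 of the 30 passed without 3-month Eµ-TCL1 replicate 1 and 5 without replicate 2. The other 9 tested members of the MYC network, its partners and antagonists, did not pass.

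The palindrome CACGTG is the core of the E-box that MYC and related factors bind. Bases 250 to 2 before the start site, from RefSeq on GRCm38.p6, were searched for it on both strands at once, since it reads the same on each. Of the 25 MYC-responsive genes with a promoter entry, 7 held it (28%), and of the 14 called ones 4 (28.6%), nearly the same share. The letters were in 11.3% of 1078 called higher genes, 9.39% of 11134 tested genes with an entry and 6% of all 32851 promoters. Eif4a1 and Cdk4 are shown because they were called, hold the letters and have no annotated exon in the window; capitals mark the match. Cdk4, the cyclin D-dependent kinase, rose by 0.57 and holds 4 matches, and Eif4a1, a helicase of translation initiation, rose by 0.51 and holds 1. A match is a description of the sequence and not of binding.
Cdk4 (chr10:127063285-127063533, plus strand): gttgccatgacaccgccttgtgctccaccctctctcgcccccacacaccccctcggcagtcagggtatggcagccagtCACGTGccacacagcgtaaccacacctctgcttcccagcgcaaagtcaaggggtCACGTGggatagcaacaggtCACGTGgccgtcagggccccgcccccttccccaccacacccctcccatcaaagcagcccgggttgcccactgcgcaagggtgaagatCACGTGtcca
Eif4a1 (chr11:69672425-69672673, minus strand): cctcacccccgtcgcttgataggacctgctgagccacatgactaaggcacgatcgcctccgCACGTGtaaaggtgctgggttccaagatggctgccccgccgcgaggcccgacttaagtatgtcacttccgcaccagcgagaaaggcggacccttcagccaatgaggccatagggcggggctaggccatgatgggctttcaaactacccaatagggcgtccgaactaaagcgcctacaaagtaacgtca

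Proliferation genes mostly had positive log2 fold changes, and few passed. Of 30 mitotic genes all 30 had a positive log2 fold change (median 0.76), yet only Tacc3, a spindle protein, passed (5.16 and 7.87 against 17 and 15.2 CPM, log2 fold change 1.30). Of 30 replication genes 27 were positive (median 0.62), and E2f2 (0.82) and Ccne1, the cyclin of S-phase entry (0.78), passed. These shares, 3.3% and 6.7%, were below the 7.49% of all genes that rose. DESeq2 called 1 mitotic and 6 replication genes on all libraries, and 7 and 6 on the 4 libraries alone. In edgeR without 3-month Eµ-TCL1 replicate 1, 0 genes of either list passed, although 1 mitotic and 3 replication genes had an unadjusted p below 0.05, and without replicate 2 Tacc3 and 0 replication genes passed, although 13 replication genes had an unadjusted p below 0.05. Mki67, the proliferation marker, was at 354 and 587 CPM in Eµ-TCL1 at 3 months and 975 and 774 CPM in Eµ-PRMT5/TCL1 at 6 months, and at 657 and 197 CPM in Eµ-TCL1 at 6 months, so mice of a single group differed widely. The median of the mitotic list relative to the Eµ-TCL1 mean at 3 months was 0.96 and 0.57 log2 units in the older double-transgenic mice, but 0.52 and -0.87 in the 2 Eµ-TCL1 mice at 6 months. Among cyclins and cell-cycle inhibitors, 6 of 21 rose (28.6%, against 7.49% of all genes) and 0 fell, including Cdk4, Cdk2 (0.48), Rb1 (0.50) and Chek2 (0.61). DESeq2 on the 4 libraries alone called 0 of the 21, although 7 had an unadjusted p below 0.05. In edgeR 0 of these passed without either Eµ-TCL1 library at 3 months, although 6 had an unadjusted p below 0.05 each time, and DESeq2 on all libraries called 6. Cdkn2b, an inhibitor of CDK4, was at 1.27 and 5.32 CPM in the older double-transgenic mice and at 0.788 and 0.433 CPM in Eµ-TCL1 at 3 months (log2 fold change 2.40, SE 0.69, edgeR adjusted p 0.0493) and passed in only 1 of the 9 fits that left out a library. Its neighbour Cdkn2a was not tested, with 45 counts in 6-month Eµ-PRMT5/TCL1 replicate 2, 0 in replicate 1 and at most 4 in the other libraries.

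Glycolytic genes were higher in part, and few genes of the BCL2 family passed. Of 18 glycolytic genes 8 rose (44.4%, with 7.49% of all genes higher) and 0 fell (median 0.36). The median of the list between 6 and 3 months in Eµ-TCL1, which shares the younger mice, was 0.44. Gapdh was at 126 and 169 CPM in Eµ-TCL1 at 3 months and 337 and 335 CPM in Eµ-PRMT5/TCL1 at 6 months, but also at 247 and 273 CPM in Eµ-TCL1 at 6 months. Tpi1 (1.14), Hk2, the inducible hexokinase (0.87), and Gpi1 (0.87) rose as well, and 3 members passed without 3-month Eµ-TCL1 replicate 1 and 4 without replicate 2. In the BCL2 family, Mcl1 (0.58), which protects from apoptosis, and the pro-apoptotic Bid (0.60) and Bax (0.49) rose among 16 tested (18.8%), and in edgeR 0 passed without either of those libraries, with 4 and 5 at an unadjusted p under 0.05; DESeq2 called 3. DESeq2 on the 4 libraries alone called 1 gene of this family, beside 3 on all libraries. Bcl2 itself was at 151 and 99.1 CPM in the younger and 90.3 and 156 CPM in the older double-transgenic mice, with overlapping groups.

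Some receptors for homing and for contact with T cells passed in each direction. In the homing list 3 of 19 rose and 5 fell, against 7.49% and 6.91% of all genes. Ccr6, a chemokine receptor of mature B cells, fell from 27.3 and 38.8 to 7.35 and 3.89 CPM (log2 fold change -2.55, SE 0.28, edgeR adjusted p 0.00196), and Ccr7, which guides cells into T-cell zones, from 79.7 and 102 to 37 and 44 CPM. Rgs1 (-1.42) and Itga4 (-0.66) also fell. Itgb1, a chain of very late antigen integrins (1.37), the hyaluronan receptor gene Cd44 (1.21) and Cxcr5, the follicle homing receptor (0.79), rose. In the fit without 3-month Eµ-TCL1 replicate 1, 1 member rose and 3 fell, and in that without replicate 2, 1 rose and 2 fell. Ccr7 and Itga4 are also transcribed in T cells, whose part was not tested. Of 19 checkpoint and suppressive genes 5 rose and 2 fell, beside the same shares of all genes; 2 of 19 is near the share of all genes that fell. Cd80, a ligand of CD28 and CTLA4, rose from 26.1 and 13.9 to 66.4 and 80.6 CPM (log2 fold change 1.88), and its relative Cd86 by 0.99. Cd274, which encodes PD-L1, was at 67.8 and 62.1 CPM in the younger and 160.4 and 107 CPM in the older double-transgenic mice, without overlap (log2 fold change 1.04), and Entpd1, the ectoenzyme CD39, rose by 1.16. Pdcd1, the receptor PD-1, fell by 1.29 and Tgfb1 by 0.77 on the log2 scale. For both genes too, the part of T cells, whose markers fell, was not tested. In these same fits 3 and 2 members rose, and 0 fell.

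Signalling and immune response lists were read against the 14.4% of all genes called in either direction. NF-kB genes were called in 29.4%, with Bcl10 (0.49) and Nfkbie (0.44) higher and Nfkbia (-0.44), Map3k14 (-0.60) and Traf1 (-0.74) lower among 17. In the interferon list 4 of 18 fell (22.2%) and 0 rose, including Ifit3 (-1.81), Ifit2 (-1.08) and Usp18 (-0.72). Notch1 (-0.62) and Maml2 (-0.57) fell among 11 Notch genes (18.2%, near the share of all genes), and the part of T cells in them was not tested. Jun (1.34) rose and Dusp2 (-1.34) fell among 18 immediate early genes, or 11.1%, which is below the share of all genes. Jun passed in 4 of the 9 fits that left out a library and was at 51.9 and 80.2 CPM in the younger mice, 218 and 116 CPM in the older double-transgenic mice and 158 and 168 CPM in Eµ-TCL1 at 6 months. Of 17 antigen presentation genes 0 passed in edgeR, although 3 had an unadjusted p below 0.05, and 1 passed in DESeq2. In the germinal centre list Gcsam (-1.82) and Nuggc (-1.16) fell among 12 (16.7%, near the share of all genes). Among 10 tested immature B-cell genes, Pafah1b3 (1.52), Cd24a and Cd93 (0.87) rose and Dntt (-2.38) fell (40%). In edgeR without 3-month Eµ-TCL1 replicate 1 or 2, 0 of the NF-kB genes passed, with 6 and 5 at an unadjusted p under 0.05, and 0 of the Notch genes, with 4 and 2; DESeq2 on all libraries called 5 and 2. Of the interferon genes 0 passed without replicate 1 in edgeR, although 4 had an unadjusted p below 0.05, and 1 without replicate 2; DESeq2 called 5. The germinal centre count in edgeR was 1 without replicate 1 and 0 without replicate 2, although 1 had an unadjusted p below 0.05; it was also 0 without any single Eµ-PRMT5/TCL1 library at 3 months, with 3 below 0.05 each time, and DESeq2 on all libraries called 2. Without 3-month Eµ-TCL1 replicate 1 the immediate early genes had 0 that rose and 1 that fell. The count of the immature B-cell genes was 1 without replicate 1 and 3 without replicate 2.

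Of 33 genes taken from the study's text, 9 rose and 4 fell, with a median log2 fold change of 0.60, against 7.49% and 6.91% of all genes. Some were named there from these samples and others from single-cell data, so the list is not independent evidence, and 1 of the 4 lower genes rests on an uncertain reading of its symbol. Without 3-month Eµ-TCL1 replicate 1, 2 rose and 4 fell, and without replicate 2, 3 rose and 4 fell. Besides those above, S100a10 (0.65) and Tubb5 (0.51) rose, and Bcl11b (-1.62), a gene of T cells, fell. The counts take no account of the direction the study gave for each gene. In its single-cell data of diseased mice, Myc, Il10, Cd274 and Ccr7 were enriched in Eµ-PRMT5/TCL1 B cells. Of these, Ccr7 fell here (-1.16). S100a10 was reduced there in a spleen B-cell cluster found almost only in Eµ-PRMT5/TCL1 mice.

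**Figure D4:**
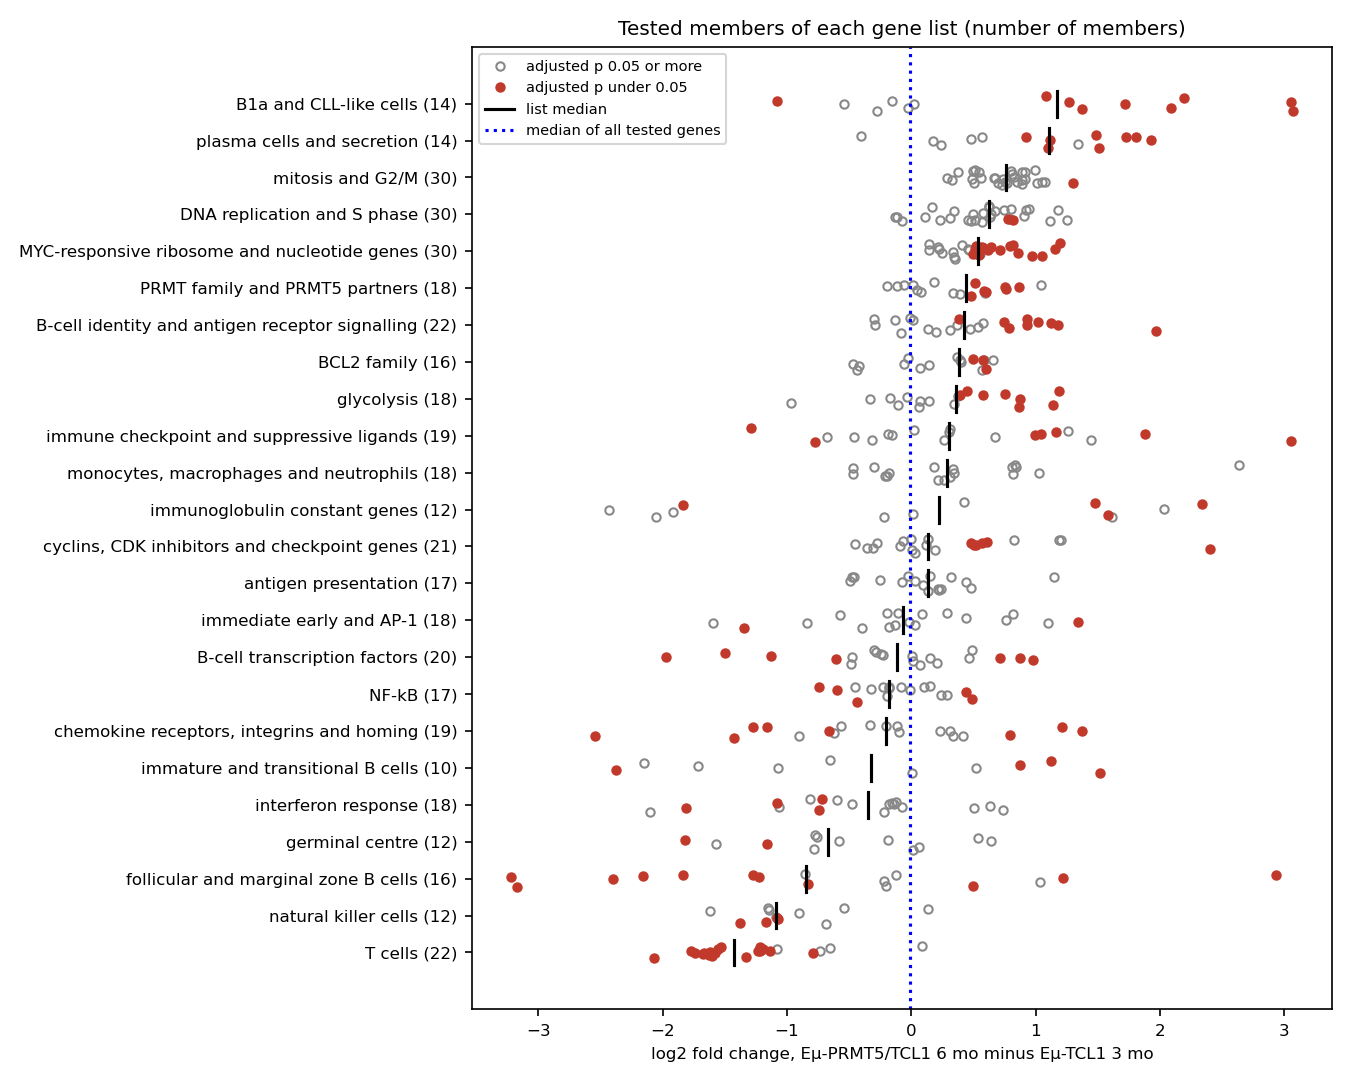
Log2 fold change of the tested members of 24 gene lists (number of members in brackets), ordered by list median (black bar), with called genes in red and the median of all tested genes as a dotted line. B1a and plasma cell genes have the highest medians, 1.17 and 1.11, and T-cell genes the lowest, -1.43.

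Most T-cell markers fell in the older double-transgenic mice. Of 22 T-cell markers 18 fell (81.8%, against 6.91% of all genes) and 0 rose, with a median log2 fold change of -1.43. Their summed level was 2726 and 2684 CPM in Eµ-TCL1 at 3 months, 1305 and 1044 CPM in Eµ-PRMT5/TCL1 at 6 months, and the other 5 libraries ranged from 2052 to 3088 CPM. Cd3e, a subunit of the T-cell receptor complex, fell from 66.1 and 55.8 to 20 and 15.6 CPM, and Lef1, also expressed in CLL cells, from 167 and 132 to 32.2 and 38.9 CPM. Of 171 tested T-cell receptor gene segments 104 fell and 0 rose. In RNA from a mixed sample, fewer T cells and less of these transcripts per cell cannot be told apart. With the mean of the T-cell list as a covariate, edgeR called 0 genes, with 510 at an unadjusted p below 0.05 and a smallest adjusted p of 0.45. That mean was largely set by group (R squared 0.93), so group and T-cell level cannot be told apart. Of 12 natural killer cell markers 4 fell, with a summed level of 507 and 363 CPM in Eµ-TCL1 at 3 months and 201 CPM in both older double-transgenic mice; in edgeR 0 passed without either Eµ-TCL1 library at 3 months, with 5 and 10 at an unadjusted p under 0.05, and DESeq2 on all libraries called 8.

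Myeloid transcripts separated the 2 Eµ-PRMT5/TCL1 mice at 6 months from each other. The 18 markers summed to 10605 CPM in replicate 1 and 1410 CPM in replicate 2, against 3166 and 7244 CPM in Eµ-TCL1 at 3 months. S100a9, a granule protein of neutrophils, was at 3599.6 and 383 CPM in the older double-transgenic and 886 and 2441 CPM in the younger mice. Of the 18 genes 0 passed in edgeR, 0 had an unadjusted p below 0.05, and 0 passed in DESeq2. These mice differed more than any other pair within a group: of 11658 genes averaging at least 5 CPM, 1047 differed between them by more than 1 log2 unit, against 206 between the younger mice and 129 to 436 between the other mice of 1 group. Of 10 dendritic cell markers 0 passed in edgeR, although 2 had an unadjusted p below 0.05, and 1 passed in DESeq2. Among 9 tested erythroid genes Alas2 (1.22) rose and Car2 (-1.52) fell, and of 4 tested stromal and endothelial genes Cdh5 (1.31) rose, at 2.34 and 3.74 CPM. Over all tested genes 7.49% rose and 6.91% fell, so single calls in lists this small are no result about these cells. Alas2 passed in 5 and Car2 and Cdh5 in 3 of the 9 fits that left out a library. Without 3-month Eµ-TCL1 replicate 1 or 2, edgeR called 0 erythroid genes, with 2 and 4 at an unadjusted p under 0.05, and 0 stromal genes, with 2 each time; DESeq2 on all libraries called 2 and 1. The 1 platelet gene tested, Itga2b, did not pass. The part of these cells in the results above was not tested.

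**Figure D5:**
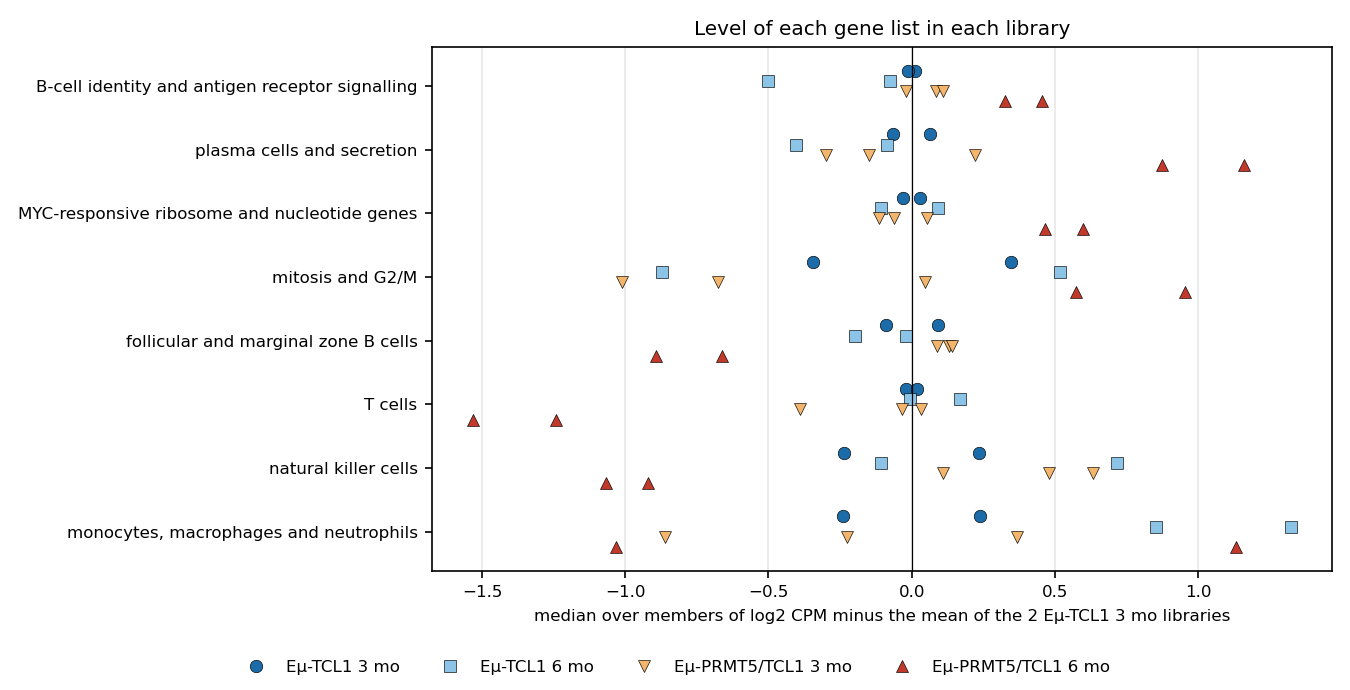
Median over the members of 8 gene lists of log2 CPM minus the mean of the Eµ-TCL1 libraries at 3 months, 1 symbol per library. T-cell genes lie at -1.24 and -1.53 in Eµ-PRMT5/TCL1 at 6 months, and myeloid genes at 1.13 and -1.03 in these same 2 mice.

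The chromosomes were alike in their medians. Among genes averaging at least 5 CPM, the median log2 fold change per chromosome ran from 0.0187 on chromosome 12 to 0.169 on chromosome 4. The medians of the 2 Eµ-PRMT5/TCL1 mice, 0.143 and 0.157 on chromosome 4, were alike.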

How the data were processed

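RNA-seq counts per gene were deposited for each of the 9 libraries. Per the labels and the study's methods, the authors made stranded mRNA libraries, trimmed reads with Cutadapt, aligned them with STAR 2.6.0c to GRCm38 with Ensembl annotation release 95, and counted them with featureCounts 1.4.6-p5, with no strand option given. Here, genes were filtered on low counts with filterByExpr, leaving 18795 of 54838, scaled by TMM and tested with edgeR 4.0.16 (robust quasi-likelihood, all 4 groups sharing the spread, Benjamini-Hochberg adjustment) in R 4.3.3. DESeq2 1.42.0, other filters and scalings, covariates, blocks and single libraries left out were alternatives. CPM used the TMM-scaled library size. Total counts per library ran from 12233230 to 17330246, and a count of 3 in a library, the upper limit that a count of 0 allows, was 0.173 to 0.245 CPM; intervals and this limit cover counting error only. Named genes also had groups that did not overlap, at least 5 CPM on average in the higher group and no provisional name. The genes and the 33 gene lists were chosen with earlier results of these data known. Some genes of these lists are counted but not reported by name here. The fits were tested on simulated data.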

Additional observations from a re-analysis of the deposited data

How the results depend on the processing

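In Eµ-PRMT5/TCL1 at 6 months against Eµ-TCL1 at 3 months, edgeR called 2706 genes. The fit of the 4 libraries alone called 0 (4662 at an unadjusted p under 0.05), the fit with the T-cell list as a covariate 0, and leaving out single libraries gave 651 to 3036, the lowest without Eµ-TCL1 replicate 1 at 3 months (651) or replicate 2 (880). Deviations of same-numbered libraries of the 2 groups correlated at -0.371 over 11658 genes. With 2 mice a group, this value cannot settle whether the replicate numbers pair the mice. With the replicate block 1086 genes were called, 509 higher and 577 lower. Other fits, chosen after seeing the data, with the numbers crossed in the block and with only the 6 libraries that had at least 23648 Xist counts, called 1499 and 1766. DESeq2 with all groups, DESeq2 with the 2 groups, RLE scaling, no filter, immunoglobulin genes left out, thinned counts and non-robust estimation gave 1880 to 2908. The causes were not tested, beyond the fewer libraries in some fits. For Eµ-PRMT5/TCL1 against Eµ-TCL1 at 3 months, DESeq2 called 3 genes and edgeR 0 in every setting run. For Eµ-TCL1 at 6 against 3 months, DESeq2 called 55 and edgeR 0 to 114 with single libraries left out. With the replicate block both counts were 0, with 214 and 1156 at an unadjusted p under 0.05. Of the 33 gene lists, 24 and 21 had fewer called members without Eµ-TCL1 replicate 1 and replicate 2, 18 with the block and 28 in edgeR with the 4 libraries alone. Of the 61 genes followed singly, 58 were called, which favours a kept direction. All 61 kept their direction in the settings where they were followed, with 57 of them present once immunoglobulin genes were left out. They were not followed with the T-cell covariate, the crossed block or the 6 libraries with Xist. Some genes given above that did not pass changed sign with single libraries left out. Their log2 fold changes ran from -3.61 to 3.02 for Ighg2b, -2.25 to 2.58 for Ighg2c, -2.11 to 1.19 for S100a9, -0.85 to 0.27 for Jchain, -0.50 to 0.42 for Pax5 and -0.46 to 0.33 for Bcl2. Others kept their sign, among them Cd5 (-0.71 to -0.37), Mki67 (0.57 to 1.33), Wdr77 (0.13 to 0.25), Sdc1 (0.31 to 0.70) and Ebf1 (-0.48 to -0.13).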
